A study of Mus musculus with 12 samples.

Results

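Hyperoxia was compared with room air in the lungs of newborn mice that had first received the gold compound aurothioglucose (ATG), which blocks thioredoxin reductase. The comparison was drawn between 6 of the 12 RNA-seq libraries of the series. These were the 3 labelled aurothioglucose and hyperoxia and the 3 labelled aurothioglucose and room air. The labels alone placed each library in its group. All pups were of strain C57/Bl6, with no mutant allele or transgene named in the labels, and the RNA came from whole lungs whose lavage fluid had been taken off. ATG was given at 25 mg/kg into the peritoneum on day 0, and the pups then breathed more than 95% oxygen for 72 h (hyperoxia) or room air. The other 6 libraries came from pups given saline in place of ATG and kept under the same 2 conditions, 3 in each. Their levels are described only where the response after ATG is set beside that after saline. All 12 libraries were fitted together, so the saline libraries also entered the filter, the scaling and the estimate of spread behind each p-value. The labels do not say whether the samples of a group were separate animals or litters, so p-values measure only the spread between these samples, which may be technical.

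Breathing high oxygen raises the production of superoxide and hydrogen peroxide in lung cells, which oxidise proteins, lipids and DNA. Damaged DNA activates p53, a transcription factor that stops the cell cycle and can start cell death, and oxidised KEAP1 releases NRF2, a transcription factor of antioxidant and detoxifying enzymes. Thioredoxin reductase keeps thioredoxin reduced, and thioredoxin in turn serves the peroxiredoxins, which remove peroxides, and ribonucleotide reductase, which makes the precursors of DNA. The mouse lung divides its air sacs into alveoli after birth, a process that needs dividing epithelial, endothelial and myofibroblast cells.

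Total counts ran from 14589812 to 17368904 in the 3 room air libraries and from 18009965 to 20486735 in the 3 hyperoxia libraries, so the hyperoxia libraries were all deeper. The table held 23478 genes, and 15761 passed the filter on low counts and were tested. ATG hyperoxia 2 stood apart: Nppa, the atrial natriuretic peptide gene, was at 1108 CPM (counts per unit of scaled library size) there and at 2.16 to 2.86 CPM in the other 5. The summed level of 15 cardiomyocyte markers was 818 to 1250 CPM in room air, 653 and 891 CPM in ATG hyperoxia 3 and 1, and 7520 CPM in ATG hyperoxia 2, and none of the 15 passed the test. Ucp1, a brown fat gene, was at 6.22 CPM in the same library and at 0 to 1.05 CPM elsewhere. On the first principal component (44.2% of the variance of the 500 most variable genes) that library scored 41.9 and the others −19.4 to 0.839. Defining lung markers were present in all 6 libraries, with Sftpc, the surfactant protein C gene of type 2 cells, at 6807 to 7792 CPM and Pecam1, of endothelium, at 430 to 513 CPM. Xist and Y-linked genes assigned 1 male and 2 females to room air and 2 males and 1 female to hyperoxia. Counts without ATG hyperoxia 2 stand beside some of those that moved without it.

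After ATG, genes of the p53 response, antioxidant defence, amino acid supply, lysosomes and the respiratory chain rose in hyperoxia, and genes of DNA replication, mitosis and histones fell. By edgeR's quasi-likelihood test at a Benjamini-Hochberg adjusted p of 0.05, 853 genes were higher in hyperoxia (5.41% of those tested) and 985 lower (6.25%), 11.7% in all. At least a 2-fold change was reached by 164 of the higher and 314 of the lower genes. The median log2 fold change over all tested genes was 0.0008. Without ATG hyperoxia 2, 672 genes were higher and 672 lower, among them 600 and 618 of those called with it. Without ATG room air 1 the counts were 555 and 597, and without ATG room air 3 they were 581 and 569.

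**Figure D1:**
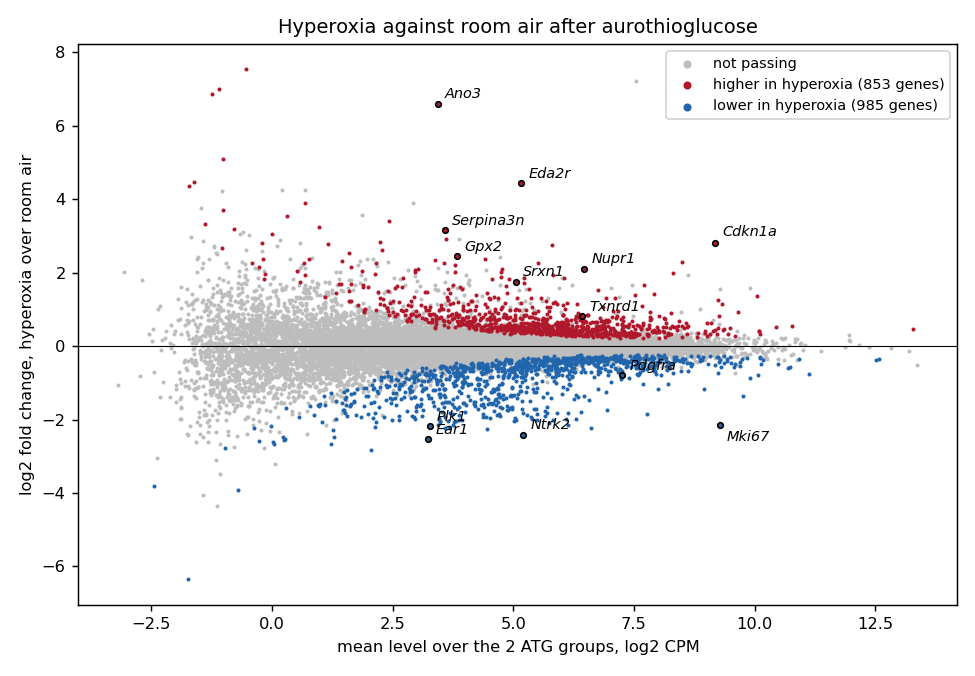
Log2 fold change of hyperoxia over room air after aurothioglucose (y axis) against the mean level over both ATG groups in log2 CPM (x axis), 1 point per tested gene. Red points are the 853 genes that were higher and blue points the 985 that were lower by edgeR's quasi-likelihood test; Ano3 and Eda2r lead the labelled rises, and Ear1 and Ntrk2 the labelled falls.

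The largest rises among genes at 5 CPM or more were led by Ano3 and Eda2r. Ano3 (chromosome 2, 110655201 to 110950391, protein-coding; positions are RefSeq gene spans on GRCm38.p6) encodes a membrane protein of the anoctamin family. It stood at 0.395, 0 and 0.24 CPM in room air (6, 0 and 4 counts) and at 29.9, 4.82 and 29.5 CPM in hyperoxia (543, 86 and 598 counts). Ano3 was therefore almost unread in room air and lower in ATG hyperoxia 2 than in its partners. Its log2 fold change was 6.60 (SE 0.77, edgeR adjusted p = 0.000133); by limma-voom the adjusted p was 0.147, the highest of 16 alternatives, whose lowest was 2.34e-12. Rragd, a GTPase that carries nutrient signals to mTORC1 at the lysosome, stood at 14.1, 18.1 and 14.7 CPM in room air and 64.7, 90.8 and 71.6 CPM in hyperoxia (log2 fold change 2.28, SE 0.15, adjusted p = 1.25e-06). Slc19a2, a thiamine transporter, rose by 2.20 and Ckmt1, a mitochondrial creatine kinase, by 2.27 on the log2 scale. Serpina3n, a secreted serpin, rose by 3.15 from 0.839 to 4.64 CPM in room air to 14.8 to 29.0 CPM in hyperoxia, and Serpina3g by 2.10. The Serpina3 genes are near-identical copies, so their values are uncertain. Nmrk2 and Cox6a2, which are known from heart and skeletal muscle, rose by 2.93 and 2.36 and were highest in ATG hyperoxia 2, at 28.8 and 66.4 CPM. Ankrd1, a stretch-responsive gene of the heart, was at 223 CPM in that library and 44.1 and 24.4 CPM in the other hyperoxia libraries, against 11.2 to 19.9 CPM in room air. Its log2 fold change of 2.76 (adjusted p = 0.0242) was 1.27 without ATG hyperoxia 2 (adjusted p = 0.162, the highest of 16 alternatives, whose lowest was 0.000296).

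Among the falls, Ear1 and Ntrk2 went down most. Ear1 (chromosome 14, 43818765 to 43819639), a ribonuclease of the eosinophil-associated family, stood at 13.9, 19.2 and 15.2 CPM in room air and at 2.37, 3.42 and 2.51 CPM in hyperoxia (log2 fold change −2.54, SE 0.20, adjusted p = 4.17e-06). The family has near-identical copies, so this value is uncertain. Ntrk2 (chromosome 13, 58806472 to 59133970), the receptor of brain-derived neurotrophic factor, stood at 57.9, 52.8 and 75.6 CPM in room air and at 11.2, 14.4 and 9.46 CPM in hyperoxia. It fell by 2.41 (SE 0.19, adjusted p = 4.17e-06), and the groups were far from overlapping. The other 13 of the 15 largest falls were genes of cell division or of histones. In bulk lung, fewer cells of a type and less RNA per cell cannot be told apart.

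**Figure D2:**
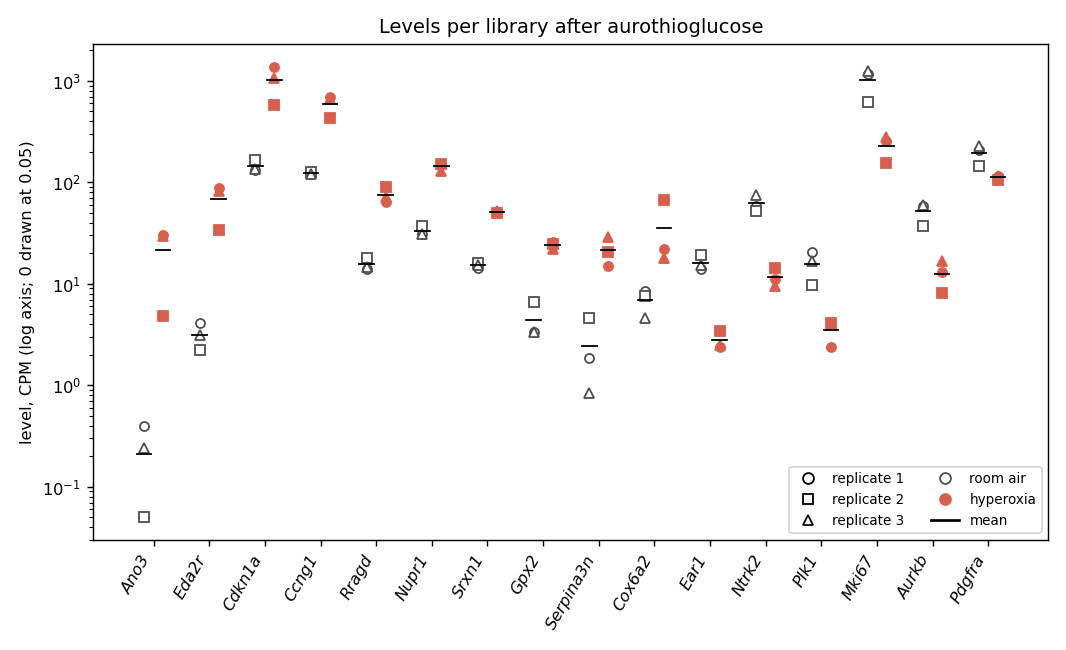
Level in CPM (log axis, 0 drawn at 0.05) of 16 genes in each of the 6 libraries given aurothioglucose, with open symbols for room air, filled symbols for hyperoxia, 1 shape per replicate number and a bar at the mean of 3. The filled symbols lie above the open ones from Ano3 to Cox6a2 and below them from Ear1 to Pdgfra; the square of hyperoxia replicate 2 is the lowest filled symbol for Ano3, Eda2r, Cdkn1a and Ccng1.

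Targets of p53 that stop the cell cycle rose. Cdkn1a (chromosome 17, 29090979 to 29100722), the gene of the cell cycle inhibitor p21, stood at 134, 168 and 135 CPM in room air and at 1385, 580 and 1079 CPM in hyperoxia. Its lowest hyperoxia library, ATG hyperoxia 2, was still above 3 times every room air library. The fold change was 6.98. Ccng1 (chromosome 11, 40748552 to 40755309), cyclin G1, was tight in room air at 120, 126 and 122 CPM and reached 695, 431 and 659 CPM in hyperoxia (log2 fold change 2.28, SE 0.17, adjusted p = 2.69e-06). Sesn2, a stress sensor that restrains mTORC1, rose by 1.82, and Mdm2, the ubiquitin ligase that degrades p53, by 0.92. Of 20 genes of arrest and feedback, 12 rose, 0 fell and 8 did not pass, with a median log2 fold change of 1.18. Groups did not overlap for 15 of the 20 in the higher direction, against 13.7% of all tested genes. Sesn1, a relative of Sesn2, was the lowest member at −0.28 and did not pass.

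The p53 targets of cell death were led by Eda2r (chromosome X, 97333837 to 97377234), which encodes the ectodysplasin A2 receptor, at 4.08, 2.22 and 3.11 CPM in room air and 88.9, 34.3 and 82.2 CPM in hyperoxia (log2 fold change 4.44, SE 0.34, adjusted p = 4.09e-06). Aen, a nuclease of apoptosis, rose by 2.09, Tnfrsf10b, the mouse TRAIL death receptor, by 1.73, and Bax, which opens the mitochondrial outer membrane, by 1.40. In all, 6 of 15 rose and 0 fell, with a median of 0.64. Among p53 targets of DNA repair, Polk, a translesion polymerase, rose by 1.22 and Ercc5, a nuclease of excision repair, by 0.64, while Polh, another translesion polymerase, fell by 0.59. Of these 8 genes 2 rose and 2 fell, and 1 fell without ATG room air 1 or 3 or ATG hyperoxia 2 or 3.

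Promoter sequences of 2 of these genes show letters known from p53 binding. They are RefSeq sequences on GRCm38.p6, written 5′ to 3′ on the gene's strand, 100 bases each, with capitals at each match to the p53 half-site on either strand; here 2 matches in Cdkn1a and 1 in Ccng1.
Cdkn1a, chr17:29090879-29090978, plus strand: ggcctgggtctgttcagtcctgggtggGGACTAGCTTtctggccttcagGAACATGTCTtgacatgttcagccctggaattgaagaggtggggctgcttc
Ccng1, chr11:40755417-40755516, minus strand: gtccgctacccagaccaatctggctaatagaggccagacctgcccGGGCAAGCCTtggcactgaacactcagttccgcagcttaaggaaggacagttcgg
Of 20 promoters of the p53 targets that were called here, searched over 250 bases before the start, 7 (35.0%) held at least 1 half-site, against 6.23% of 14663 promoters of tested genes. A match describes the letters and shows no binding.

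Genes of DNA replication fell. Mcm6, a subunit of the replicative helicase, stood at 97.5, 75.2 and 105 CPM in room air and 48.9, 43.6 and 56.0 CPM in hyperoxia (log2 fold change −0.90, SE 0.12, adjusted p = 0.0004). Mcm2, another subunit, fell by 0.83, Gins2, which ties the helicase to the polymerases, by 1.60, and Pcna, the sliding clamp, by 0.81. Of 32 replication genes, 25 fell, 0 rose and 7 did not pass, and all 32 had a fold change below 0, between −1.77 and −0.25. The median was −0.91, and 21 fell without ATG room air 3 or without ATG hyperoxia 2. Of 19 genes of recombination and checkpoint, 15 fell and 0 rose, with a median of −1.12. In that list 11 fell without ATG room air 3 and 12 without ATG hyperoxia 2. Clspn, which relays replication stress to CHEK1, fell by 1.67, and Brca2, a gene of homologous recombination, by 0.87. Atr and Atm, the kinases at the head of this pathway, were at −0.05 and −0.15 and did not pass.

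Mitotic genes fell further. Mki67 (chromosome 7, 135689784 to 135716450), whose protein Ki-67 marks dividing cells, stood at 1163, 613 and 1258 CPM in room air and 256, 154 and 277 CPM in hyperoxia. The lowest room air library, ATG room air 2, was more than 2 times the highest hyperoxia library. Plk1 (chromosome 7, 122159435 to 122169884), a kinase of mitotic entry, stood at 20.6, 9.76 and 16.9 CPM and then 2.37, 4.15 and 3.89 CPM (log2 fold change −2.18, SE 0.38, adjusted p = 0.00176). Cenpf, a kinetochore protein, fell by 2.22, Espl1, the separase that cuts cohesin, by 2.21, and Aurkb, a kinase of the chromosomal passenger complex, by 2.04. All 28 genes of mitosis and spindle fell, and the groups did not overlap for any of the 28, against 13.9% of all tested genes in the lower direction. Their median was −1.83, and 28 of 28 fell in each alternative tried, including the fit without ATG hyperoxia 2. Of 30 cyclins, E2F factors and CDK regulators 12 fell and 1 rose. Ccne1, cyclin E1, fell by 1.43, E2f8, a repressor of the E2F family, by 1.64 and E2f1 by 0.96, and the CDK4 and CDK6 inhibitor gene Cdkn2d fell by 0.82. Cdkn2b, an inhibitor of the same kinases, was the member that rose, by 0.51; its call was lost without ATG room air 1 or 3, without ATG hyperoxia 1, with only the 6 ATG libraries and with sex in the fit. The cyclin D genes did not pass, with Ccnd1 at 0.37, Ccnd2 at 0.19 and Ccnd3 at −0.15.

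Histone genes were counted after their values had been seen, because 3 of the 15 largest falls belonged to them. Hist1h3b, a replication-dependent histone H3 gene, stood at 40.0, 28.1 and 40.2 CPM in room air and 7.56, 4.99 and 10.1 CPM in hyperoxia (log2 fold change −2.26, SE 0.25, adjusted p = 7.56e-05). Hist1h2ab and Hist1h2ai fell by 2.07 and 2.05. Of 58 tested histone genes 51 fell and 0 rose, with a median of −1.47. On chromosome 13, 47 of them lie between 21715711 and 23934156, and 45 of those 47 fell. The share of genes called was 16.3% on chromosome 13 and 9.53% there without the histone genes, against 11.7% over all chromosomes. Replication-dependent histone genes are near-identical, so single values are uncertain.

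The promoters of 2 mitotic genes and 2 helicase genes are shown for motifs that are common in cell cycle promoters. Capitals mark CCAAT or its reverse complement in Kif23 and Bub1b, and TTTGGCGC or its reverse complement in Mcm6 and Mcm5; Kif23 drives cytokinesis, Bub1b is a spindle checkpoint kinase, and all 4 genes fell, by 1.74, 1.44, 0.90 and 1.36.
Kif23, chr9:61946800-61946899, minus strand: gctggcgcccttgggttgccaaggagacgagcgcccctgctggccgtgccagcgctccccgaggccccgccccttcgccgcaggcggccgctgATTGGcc
Bub1b, chr2:118598050-118598149, plus strand: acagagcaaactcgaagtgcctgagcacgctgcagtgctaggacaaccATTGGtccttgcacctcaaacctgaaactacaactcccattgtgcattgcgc
Mcm6, chr1:128359706-128359805, minus strand: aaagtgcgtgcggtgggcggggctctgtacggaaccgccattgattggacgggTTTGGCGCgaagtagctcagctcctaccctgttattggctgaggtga
Mcm5, chr8:75109314-75109413, plus strand: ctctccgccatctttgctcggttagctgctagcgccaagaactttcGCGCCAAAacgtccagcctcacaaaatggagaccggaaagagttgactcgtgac
CCAAT on either strand was in 19 of 25 promoters of the called mitotic genes (76.0%) and in 34.4% of all 14663. TTTGGCGC or TTCCCGCC was in 5 of 23 promoters of the called replication genes (21.7%) and in 3.76% of all.

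**Figure D3:**
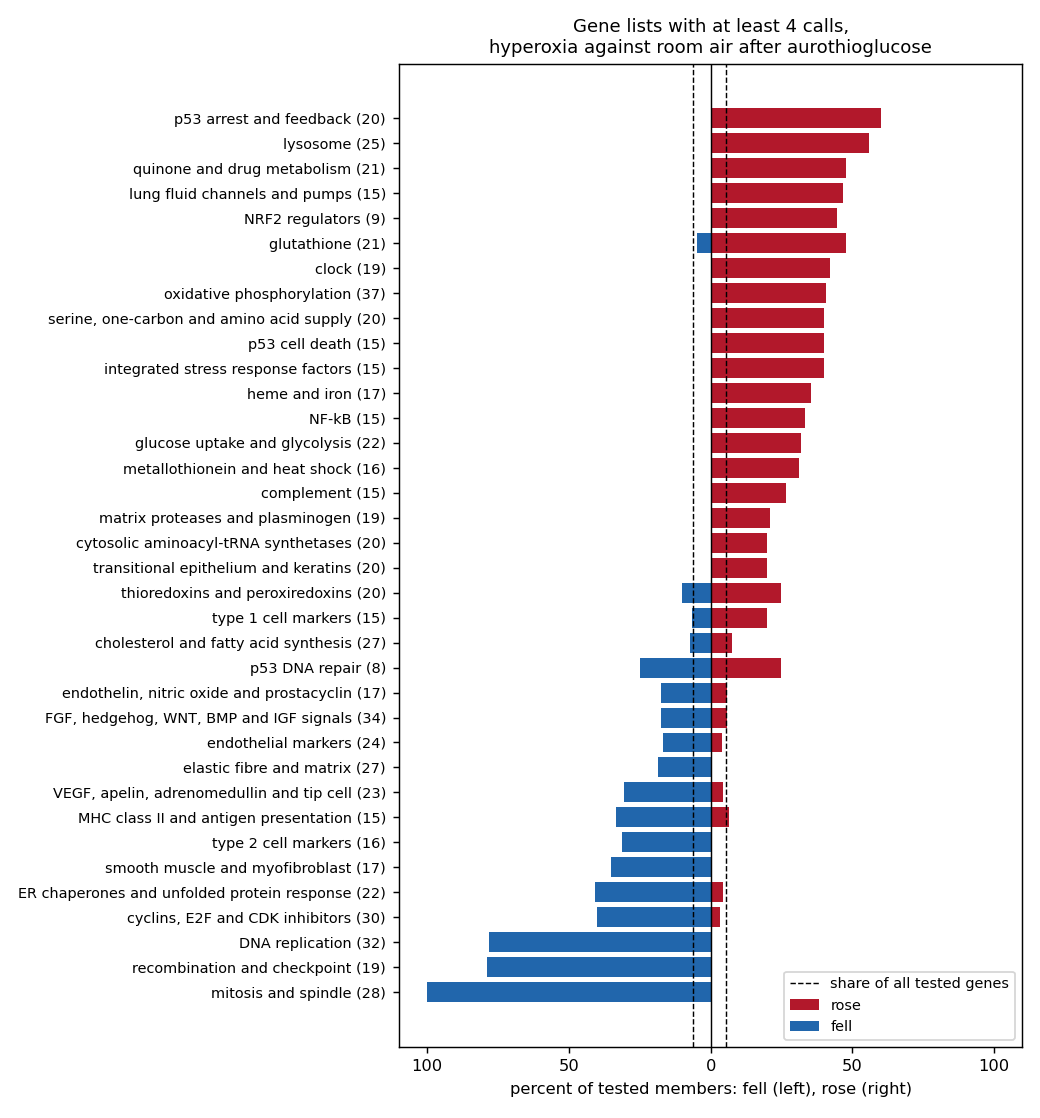
Percent of tested members that rose (right, red) or fell (left, blue) after aurothioglucose in hyperoxia for each gene list with at least 4 calls, with the number tested in parentheses. Dashed lines mark the share of all tested genes, 5.41% higher and 6.25% lower; mitosis and spindle reaches 100% on the falling side and p53 arrest and feedback has the longest bar on the rising side.

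Thioredoxin system genes rose in part. Txnrd1 (chromosome 10, 82833951 to 82897724), the cytosolic thioredoxin reductase and a target of ATG, stood at 69.2, 57.4 and 58.9 CPM in room air and 109, 112 and 106 CPM in hyperoxia (log2 fold change 0.82, SE 0.09, adjusted p = 7.56e-05). All 3 hyperoxia libraries lay above all room air libraries by more than the spread within either group. Txnrd2, the mitochondrial reductase, was at 0.54 (SE 0.20, adjusted p = 0.102) and Txnrd3, a reductase known from testis, at −0.18 (adjusted p = 0.45). Srxn1 (chromosome 2, 152105524 to 152111376), the sulfiredoxin that repairs overoxidised peroxiredoxins, stood at 14.3, 15.9 and 15.3 CPM and then 51.1, 50.4 and 52.6 CPM (log2 fold change 1.76, SE 0.12, adjusted p = 1.37e-06). Prdx6, a peroxiredoxin that also repairs oxidised phospholipid, rose by 0.91, and Prdx4, the peroxiredoxin of the endoplasmic reticulum, fell by 0.62. Of 20 genes of thioredoxins, glutaredoxins and peroxiredoxins 5 rose and 2 fell, with a median of 0.11. The count that rose was 3 without ATG room air 1, without ATG room air 3 or without ATG hyperoxia 3, and the count that fell was 1 without ATG room air 2 or 3 or ATG hyperoxia 1 or 3.

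Glutathione genes rose more widely, in 10 of 21, with 1 fall and a median of 0.55. Gclc (chromosome 9, 77754535 to 77794489), which joins glutamate and cysteine as the rate-limiting step of glutathione synthesis, stood at 119, 157 and 117 CPM in room air and 349, 364 and 334 CPM in hyperoxia (log2 fold change 1.41, SE 0.11, adjusted p = 3.2e-06). Gclm, its modifier subunit, overlapped between the groups, at 45.1, 38.5 and 52.5 CPM and 55.7, 53.1 and 51.6 CPM (log2 fold change 0.24, adjusted p = 0.222). Slc3a2, the heavy chain of the cystine and glutamate exchanger, rose by 0.80 and Gsto1, a glutathione transferase, by 1.16. Gpx2, a glutathione peroxidase of epithelia, rose by 2.45 and Gpx2-ps1, its processed copy, by 2.34, and reads of one may be counted for the other. Of 9 genes of superoxide and peroxide removal only Sod2, the mitochondrial superoxide dismutase, rose, by 0.54. In that list 2 fell, with Ucp2, a mitochondrial carrier, down by 0.43. The shares over all tested genes were 5.41% higher and 6.25% lower.

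Enzymes that detoxify quinones, aldehydes and drugs rose in 10 of 21, with 0 falls and a median of 0.50. Ephx1, the microsomal epoxide hydrolase, stood at 28.5, 35.5 and 21.4 CPM in room air and 120, 91.2 and 101 CPM in hyperoxia (log2 fold change 1.87, SE 0.17, adjusted p = 1.57e-05). Aldh1a1, a retinaldehyde dehydrogenase, rose by 1.27, Nqo1, the quinone reductase, by 1.22 and Akr1b8, an aldose reductase, by 1.26. Me1 and Pgd, which make NADPH for the reductases, rose by 0.61 and 0.64. The other 10 of 12 NADPH genes did not pass, and 5.41% of all tested genes were higher. Hmox1, the heme oxygenase that stress induces, stood at 33.1, 38.7 and 32.1 CPM and then 71.4, 77.7 and 87.5 CPM (log2 fold change 1.19, SE 0.13, adjusted p = 6.31e-05). Ftl1 and Fth1, the ferritin chains, rose by 1.15 and 0.93, with processed copies that make their counts uncertain, and Tfrc, the transferrin receptor, by 0.65. In all, 6 of 17 heme and iron genes rose and 0 fell. Their median was 0.43, and 0.18 without ATG hyperoxia 2.

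Among the regulators, Nfe2l2, which encodes NRF2, rose by 0.49, Sqstm1, the adaptor that sequesters KEAP1, by 0.70 and Maff, a partner of NRF2 on DNA, by 0.76. Of 9 such genes 4 rose and 0 fell, and Keap1 was at 0.29 and did not pass. The remaining rise was Bach1, by 0.41 (edgeR adjusted p = 0.0206), whose call was lost in 3 of 16 alternatives. Metallothioneins Mt1 and Mt2, which bind metals, rose by 1.17 and 0.99, Hspb8, a small chaperone, by 0.74 and Hspa1a, an inducible HSP70, by 1.11. Mt1 with Mt2, and Hspa1a with its neighbour copy, share sequence and are uncertain. Of 16 metallothionein and heat shock genes 5 rose and 0 fell, with a median of 0.26. The promoters of 2 redox genes that rose, Txnrd1 and the microsomal glutathione transferase Mgst1 (by 0.57), are shown with TGACNNNGC, the core of the antioxidant response element, or its reverse complement in capitals.
Txnrd1, chr10:82859068-82859167, plus strand: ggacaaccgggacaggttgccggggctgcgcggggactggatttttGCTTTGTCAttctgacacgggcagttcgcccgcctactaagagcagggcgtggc
Mgst1, chr6:138140425-138140524, plus strand: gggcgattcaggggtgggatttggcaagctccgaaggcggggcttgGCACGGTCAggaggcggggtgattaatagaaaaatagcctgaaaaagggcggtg
This motif was in 3 of 36 promoters of the called redox genes (8.33%) and in 11.6% of all 14663, so it was no more frequent in the 250 bases searched.

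Transcription factors of the integrated stress response rose. This pathway slows protein synthesis and, through ATF4, turns on amino acid transporters and synthetases. Nupr1 (chromosome 7, 126623246 to 126625470), a small stress-induced chromatin protein, stood at 31.2, 37.5 and 31.1 CPM in room air and 150, 150 and 131 CPM in hyperoxia (log2 fold change 2.11, SE 0.11, adjusted p = 1.19e-07). Trib3, a pseudokinase that restrains AKT, rose by 1.96, Atf5 by 1.83 and Atf4 itself by 0.66. Of 15 factors 6 rose and 0 fell, with a median of 0.48, or 0.70 without ATG hyperoxia 2. The number of factors that rose was 4 without ATG hyperoxia 1 or with only the 6 ATG libraries. It was 5 without ATG room air 1 or 3, and 8 without ATG hyperoxia 2. Asns (chromosome 6, 7675165 to 7693209), which makes asparagine from aspartate, stood at 11.9, 10.0 and 12.2 CPM and then 45.3, 34.3 and 46.8 CPM. Aldh1l2, a mitochondrial folate enzyme, rose by 1.60, Got1, which makes aspartate, by 1.31 and Slc1a5, the glutamine transporter, by 0.76. Of 20 genes of serine, one-carbon and amino acid supply 8 rose and 0 fell, with a median of 0.58. Phgdh, Psat1 and Psph, the 3 enzymes of serine synthesis, were at 0.78, −0.25 and 0.06 and did not pass. Among 20 cytosolic aminoacyl-tRNA synthetases 4 rose, Sars by 0.97, and 0 fell; 2 rose when only the 6 ATG libraries were fitted.
Nupr1, chr7:126625527-126625626, minus strand: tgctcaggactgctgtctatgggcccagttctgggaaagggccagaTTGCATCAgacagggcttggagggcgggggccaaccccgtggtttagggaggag
Asns, chr6:7693210-7693309, minus strand: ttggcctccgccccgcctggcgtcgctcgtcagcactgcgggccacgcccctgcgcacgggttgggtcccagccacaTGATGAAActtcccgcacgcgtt
The capitals in these promoters mark TGATGNAA, the letters of the amino acid response element, or its reverse complement. It was in 4 of 16 promoters of called genes of this group (25.0%) and in 2.11% of all 14663.

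Chaperones of the endoplasmic reticulum fell while the stress factors above rose. Hspa5 (chromosome 2, 34772090 to 34776529), the chaperone BiP, stood at 930, 1045 and 982 CPM in room air and 646, 696 and 684 CPM in hyperoxia (log2 fold change −0.55, SE 0.08, adjusted p = 0.000483). Hsp90b1, the chaperone GRP94, fell by 0.48 and Pdia6, a protein disulfide isomerase, by 0.38. Of 22 such genes 9 fell and 1 rose, with a median of −0.28; Herpud1, which helps to degrade misfolded proteins, was the one that rose, by 1.19. The number that fell was 4 without ATG room air 1, without ATG hyperoxia 1 or with only the 6 ATG libraries, and 5 without ATG room air 3. None of 31 proteasome subunits passed, and their fold changes ran from −0.28 to 0.26.

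Mitochondrial and lysosomal genes rose by small steps. Ppargc1a (chromosome 5, 51454249 to 52115853), the coactivator that drives mitochondrial biogenesis, stood at 26.2, 18.7 and 25.1 CPM in room air and 79.1, 114 and 76.9 CPM in hyperoxia (log2 fold change 1.95, SE 0.16, adjusted p = 5.13e-06). Of 37 genes of oxidative phosphorylation and its coactivators 15 rose and 0 fell, and all 37 had a fold change above 0, with a median of 0.37. Sdhd, of succinate dehydrogenase, rose by 0.58 and Ndufa9, of complex I, by 0.54. The count was 9 without ATG hyperoxia 2, which carried the heart transcripts, and 9 without ATG room air 1. Of 25 lysosome genes 14 rose and 0 fell, with a median of 0.39. Gaa, which breaks down glycogen in lysosomes, stood at 60.5, 68.7 and 69.3 CPM and then 114, 132 and 112 CPM (log2 fold change 0.85, SE 0.10, adjusted p = 0.000121). Ctsz and Ctsl, lysosomal proteases, rose by 0.72 and 0.63, and Atp6v1a, of the proton pump, by 0.54. Of 22 genes of glucose uptake and glycolysis 7 rose and 0 fell, Slc2a1, the glucose transporter GLUT1, by 0.69; only 3 rose without ATG hyperoxia 2. Of 27 cholesterol and fatty acid genes 2 rose and 2 fell, close to the shares of 5.41% and 6.25% over all tested genes, and 1 rose and 1 fell without ATG room air 1 or without ATG hyperoxia 2. The rises were also down to 1 without ATG room air 2 or ATG hyperoxia 3, and the falls without ATG room air 3 or ATG hyperoxia 1. Lss, a sterol cyclase, rose by 0.54 and Fasn, the fatty acid synthase, fell by 0.49.

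Clock genes lay higher in hyperoxia, in 8 of 19 with 0 falls and a median of 0.48. Per3, a repressor of the circadian loop, stood at 52.1, 37.6 and 49.4 CPM in room air and 86.3, 79.2 and 85.5 CPM in hyperoxia (log2 fold change 0.85, SE 0.11, adjusted p = 0.000378). Per2, its relative, rose by 0.85 too, and Bhlhe40, a repressor, by 0.81. The activators Arntl and Clock were at −0.10 and 0.30 and did not pass. The hour of sampling is not in the labels.

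**Figure D4:**
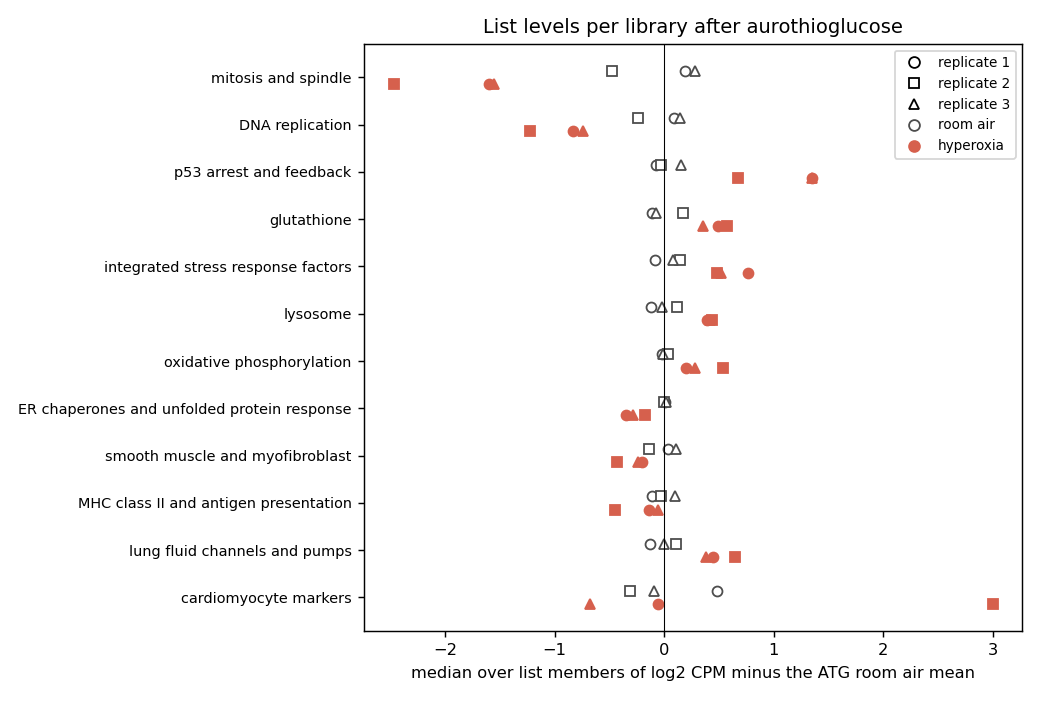
Median over the members of 12 gene lists of log2 CPM minus the ATG room air mean, in each of the 6 libraries given aurothioglucose (x axis), with open symbols for room air and filled symbols for hyperoxia, 1 shape per replicate number. The filled symbols lie left of the open ones for mitosis and DNA replication and right of them for p53, glutathione, stress response, lysosome, respiratory chain and fluid transport; for cardiomyocyte markers the square of hyperoxia replicate 2 stands alone.

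Alveolar epithelium was described by markers of its type 2 cells, which make surfactant, and of its type 1 cells, which form the gas exchange surface. Sftpc stood at 6827, 7408 and 7792 CPM in room air and 6807, 7062 and 7566 CPM in hyperoxia, which overlapped (log2 fold change −0.04, SE 0.07, adjusted p = 0.788). Sftpa1, surfactant protein A, fell by 0.59, Cxcl15, a chemokine of lung epithelium, by 0.56 and Lyz2, a lysozyme also made by macrophages, by 0.75. In all 5 of 16 type 2 markers fell and 0 rose, with a median of −0.16. That count was 3 without ATG room air 2 or 3, without ATG hyperoxia 1 or 2, with sex in the fit and with only the 6 ATG libraries. Of 15 type 1 markers 3 rose and 1 fell, against 5.41% higher and 6.25% lower over all tested genes. In that list 0 fell when any 1 ATG library other than ATG hyperoxia 2 was left out. The rise of Hopx, by 0.40, lost its call in 5 of 16 alternatives, among them without ATG room air 1 or 3 or ATG hyperoxia 1 or 3. Gprc5a, a receptor of alveolar epithelium, rose by 0.64 and Lmo7, a junction protein, by 0.56, and Ager, the most used type 1 marker, was at 0.24 and did not pass (adjusted p = 0.298). Of 20 genes of transitional epithelium and keratins 4 rose. Lgals3, galectin 3, rose by 1.30 and Itgb4, an integrin of basement membranes, by 1.02. The count was 2 without ATG room air 1, and 7 without ATG room air 2 or without ATG hyperoxia 3.

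Channels and pumps that clear fluid from the air spaces rose in 7 of 15, with 0 falls and a median of 0.51. Scnn1b, the beta subunit of the epithelial sodium channel, stood at 51.1, 62.2 and 60.9 CPM in room air and 93.9, 106 and 91.6 CPM in hyperoxia (log2 fold change 0.74, SE 0.10, adjusted p = 0.00048). Scnn1g, the gamma subunit, rose by 0.56, Atp1b1, of the sodium pump, by 0.82 and Cftr, the chloride channel, by 0.71. None of 12 ciliated and none of 10 club and secretory cell markers passed.

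Among vessel genes, Aplnr and Calcrl fell, and Vegfa and Kdr did not pass. Aplnr (chromosome 2, 85136360 to 85139923), the apelin receptor, stood at 267, 262 and 305 CPM in room air and 125, 140 and 142 CPM in hyperoxia (log2 fold change −1.03, SE 0.10, adjusted p = 3.39e-05). Calcrl, the receptor of adrenomedullin, fell by 0.78. Vegfa was at 0.21 (adjusted p = 0.291) and Kdr, the main VEGF receptor, at 0.04 (adjusted p = 0.894), and both overlapped between the groups. Of 23 genes of VEGF, apelin, adrenomedullin and tip cells 7 fell and 1 rose; 3 fell without ATG room air 1, without ATG room air 3 or without ATG hyperoxia 1. Kit and Slc6a2, a receptor and a noradrenaline transporter of lung capillaries, fell by 0.97 and 0.83, and Plvap, of the diaphragms of capillary pores, rose by 0.43. They were among 24 endothelial markers, of which 4 fell and 1 rose. Pecam1 was at −0.16 and did not pass. The number of falls was 2 without ATG room air 1, without ATG hyperoxia 1 or 2 and with only the 6 ATG libraries. Ptgs2 (chromosome 1, 150100031 to 150108234), the inducible cyclooxygenase of prostaglandin synthesis, rose from 13.9, 16.1 and 18.3 CPM to 59.0, 59.5 and 57.2 CPM (log2 fold change 1.86, SE 0.22, adjusted p = 0.000139). Of 19 genes of Notch and sphingosine phosphate signalling in vessels 1 rose and 0 fell, against 5.41% higher and 6.25% lower over all tested genes. In that list 2 rose without ATG room air 2 and 0 without ATG hyperoxia 1. Pde3b, a phosphodiesterase, fell by 0.74, and in the list of endothelin, nitric oxide and prostacyclin genes 3 of 17 fell and 1 rose. The falls in that list numbered 6 without ATG room air 2 and 1 without ATG room air 3, and 2 genes rose without ATG hyperoxia 2.

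Mesenchymal genes fell in part. Pdgfra (chromosome 5, 75151322 to 75198206), the receptor that marks the alveolar myofibroblasts, stood at 209, 143 and 230 CPM in room air and 116, 105 and 114 CPM in hyperoxia (log2 fold change −0.80, SE 0.13, adjusted p = 0.00111). Its hyperoxia libraries lay close together and its room air libraries spread widely, without overlap. Myh11 and Acta2, smooth muscle myosin and actin, fell by 0.69 and 0.41, and Actg2 by 0.60. Of 17 smooth muscle and myofibroblast genes 6 fell and 0 rose, with a median of −0.26. Among 27 genes of elastic fibres and matrix 5 fell and 0 rose. Emilin1, an elastic fibre glycoprotein, fell by 0.58, Loxl2, a crosslinking enzyme, by 0.54 and Mfap2, a microfibril protein, by 0.48. Eln, elastin itself, was at 0.10 and did not pass. The number of falls in that list was 3 without ATG room air 1 or without ATG hyperoxia 1 or 2, and 10 without ATG room air 2. In a list of 34 FGF, hedgehog, WNT, BMP, IGF and other growth signals 6 fell and 2 rose, with Fgf18, a growth factor of alveolar septation, down by 0.68. Only 2 of these falls were called without ATG room air 1, without ATG room air 3, without ATG hyperoxia 2 or with only the 6 ATG libraries. Of 17 genes of TGF-beta signalling 2 rose and 1 fell, against 5.41% higher and 6.25% lower over all tested genes. Inhba, the activin A subunit, was up by 1.55. The fall, of Tgfb2, lost its call in 10 of 16 alternatives, among them without ATG room air 1 or 3 or ATG hyperoxia 1 or 2. Cyp26b1, which degrades retinoic acid, fell by 1.33 and Aldh1a3, which makes it, rose by 1.49. F3, tissue factor, which starts coagulation, rose by 0.90, and Timp3, an inhibitor of metalloproteinases, by 0.53; 4 of 19 genes of matrix proteases and plasminogen rose and 0 fell.

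Inflammatory lists differed from each other, with 5 of 15 NF-kB genes and 4 of 15 complement genes higher and 5 of 15 genes of antigen presentation lower, against 5.41% higher and 6.25% lower over all tested genes. Icam1, an adhesion molecule for leukocytes, stood at 179, 209 and 180 CPM in room air and 341, 358 and 297 CPM in hyperoxia (log2 fold change 0.81, SE 0.11, adjusted p = 0.000483), and Rela, an NF-kB subunit, rose by 0.42. No NF-kB gene fell; 3 rose without ATG room air 1, without ATG hyperoxia 1 or with sex in the fit, and 2 without ATG room air 3. Cxcl16, a membrane-bound chemokine, rose by 1.07, and 3 of 22 chemokines rose in all, or 1 without ATG room air 3. Lif, a cytokine of the IL-6 family, rose by 1.33 and Osmr, a receptor of that family, by 0.57, and the other 13 of 15 tested cytokine and acute phase genes did not pass; 4 rose without ATG room air 2. Ifit3 rose by 1.55, and of the other 20 interferon response genes 0 rose and 1 fell, a fall that was lost without ATG room air 2 or ATG hyperoxia 3. In that list 2 rose without ATG room air 2 or ATG hyperoxia 1. Cd55, which restrains complement, rose by 0.67, and no complement gene fell. The rise of C1ra, by 0.59, lost its call in 7 of 16 alternatives, among them without ATG room air 1 or 3 or ATG hyperoxia 1, 2 or 3. Of 16 immediate early genes 2 rose, Ier3 by 0.68, or 1 without ATG room air 1 or ATG hyperoxia 1, and none of 11 glucocorticoid-responsive genes passed. Among the genes of MHC class II, which present antigen, H2-Aa stood at 87.2, 83.8 and 115 CPM and then 48.0, 26.2 and 52.7 CPM (log2 fold change −1.17, SE 0.22, adjusted p = 0.00263), H2-Eb1 fell by 1.00 and H2-DMa by 0.81. The list had a median of −0.30 and 1 rise, which was lost without ATG room air 1 or ATG hyperoxia 2. Macrophage markers were uneven, with 1 of 18 higher and 2 lower; 2 were higher without ATG room air 2, and 1 was lower without ATG room air 1 or 3 or ATG hyperoxia 1 or 2. Siglecf, listed as Siglec5 and known from alveolar macrophages and eosinophils, stood at 4.87, 3.57 and 3.53 CPM and then 0.993, 0.953 and 1.08 CPM (log2 fold change −1.97, SE 0.35, adjusted p = 0.00196). Lyve1 (chromosome 7, 110850607 to 110862953), of lymphatic endothelium and perivascular macrophages, stood at 574, 506 and 688 CPM and then 1597, 1387 and 1585 CPM (log2 fold change 1.37, SE 0.11, adjusted p = 5.31e-06). Adgre1, Cd68 and Csf1r, general macrophage markers, were at 0.29, 0.47 and −0.15 and did not pass. None of 10 tested neutrophil markers passed either, with S100a8 and S100a9 at 0.66 and 0.73, and no marker of mast cells, T, B and NK cells, thymocytes, skeletal muscle, erythroid cells, adipocytes, mesothelium, squamous epithelium and cartilage or nerve passed.

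Beside the response after saline, whose libraries are all different ones, the response after ATG had the same direction for nearly every gene it called. The Nppa-rich libraries were ATG hyperoxia 2 and saline hyperoxia 2, so both contrasts carry such a library on the hyperoxia side. In saline hyperoxia 2 Ankrd1 was at 88.4 CPM and Cox6a2 at 40.7 CPM. In saline hyperoxia 1 and 3 Ankrd1 was at 15.85 and 26.6 CPM, and Cox6a2 at 13.7 and 13.4 CPM. After saline 740 genes were higher (4.7% of those tested) and 709 lower (4.5%). Xist and Y-linked genes assigned 3 males and 0 females to saline room air and 1 male and 2 females to saline hyperoxia. Sex and hyperoxia were therefore partly mixed in the saline contrast. The 1035 genes called the same way in both were 56.3% of the ATG calls and 71.4% of the saline calls, and 0 genes were called in opposite directions. Of the 803 genes called after ATG alone, 773 (96.3%) had the same sign after saline. The number shared was 613 without saline room air 3 and 647 without saline hyperoxia 3. Over the genes higher after ATG the median log2 fold change was 0.57 after ATG and 0.47 after saline, and over those lower it was −0.67 and −0.49; the choice of these genes on the ATG values favours the ATG side. Over the genes called after saline the order turned round, with 0.56 after saline and 0.49 after ATG for the higher and −0.73 and −0.68 for the lower.

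The test of the difference between both responses called 0 of 15761 genes by edgeR's quasi-likelihood test, by DESeq2 and by limma-voom. At an unadjusted p under 0.05, 465 genes (2.95%) passed by edgeR, and the smallest adjusted p was 1.00. The 5 genes with the smallest p were Flad1, Serac1, Per2, Rag1 and Rprd1b, none of which passed. Flad1, which makes the cofactor FAD, stood at 6.31, 5.52 and 4.31 CPM in ATG room air and 9.21, 11.1 and 14.7 CPM in ATG hyperoxia, and its log2 fold change was 1.12 after ATG and −0.26 after saline (difference 1.38, SE 0.31, unadjusted p = 0.000472). Per2 was at 0.85 and 0.26 (unadjusted p = 0.000844) and Hmox1 at 1.19 and 0.64 (unadjusted p = 0.00753). Txnrd1 was at 0.82 and 0.77, a difference of 0.05 (unadjusted p = 0.688), and Cdkn1a at 2.80 and 2.93 (unadjusted p = 0.731). Among the lists, 8 genes of amino acid supply rose after ATG and 4 after saline, 9 and 3 chaperone genes fell, and 15 and 10 respiratory chain genes rose. Other lists had more rises after saline. Genes of p53 arrest and feedback rose in 12 after ATG and 14 after saline, and glutathione genes in 10 and 11. The counts were 6 and 7 for stress response factors, 14 and 15 for lysosome and 7 and 8 for fluid channels. No member of these lists passed the test of the difference. Type 2 cell markers had 5 falls and 0 rises after ATG and 2 falls and 5 rises after saline. Sftpc was at −0.04 after ATG and at 0.24 after saline, where it passed (adjusted p = 0.0473), with an unadjusted p of 0.0143 for the difference. A p that misses the threshold does not show that the responses were equal: the median SE of the difference was 0.24 on the log2 scale.

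**Figure D5:**
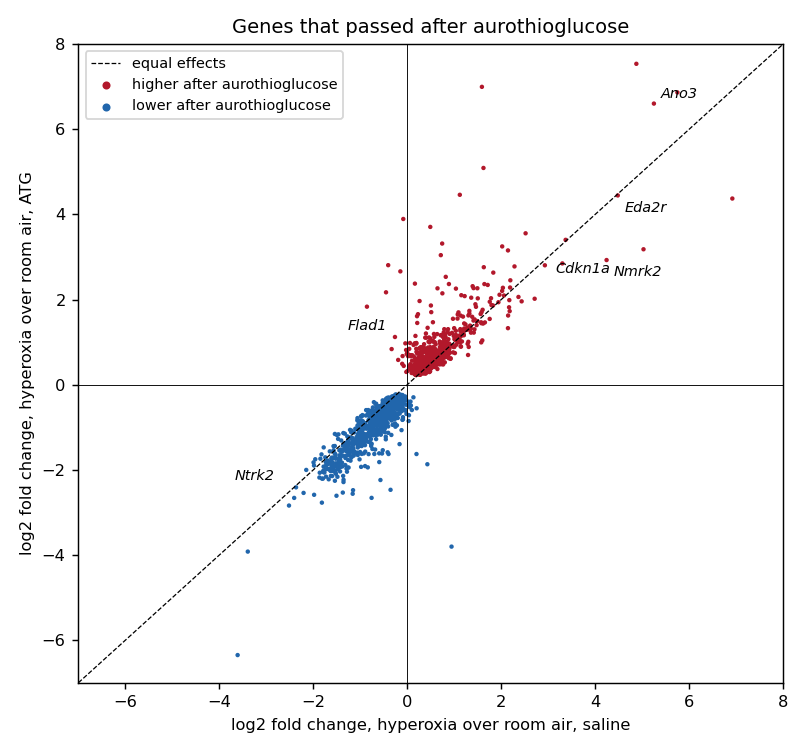
Log2 fold change of hyperoxia over room air after aurothioglucose (y axis) against the same after saline (x axis) for the 1838 genes that passed after aurothioglucose, with red for higher and blue for lower, and a dashed line where both are equal. Nearly all points (98.4%) have the same sign on both axes, with Eda2r and Cdkn1a close to the dashed line and Flad1 among the few on the other side of 0.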

How the data were processed

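RNA was amplified to cDNA and sequenced as paired ends, per the labels' protocols. The authors deposited raw counts per gene symbol for 12 libraries, unpooled. The submitters' processing notes name Bowtie2, Cufflinks and DESeq, with no version or role, and the build mm10. The sources used here do not give how reads were counted, with which annotation or with what use of strand, so near-identical, overlapping or antisense genes are uncertain. Amplified reads are not independent molecules.

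Genes were filtered by filterByExpr (minimum count 10, minimum total 15), leaving 15761 with 99.96% of counts, scaled by TMM and fitted over all 12 libraries with 1 mean per group (edgeR 4.0.16 quasi-likelihood, 8 residual degrees of freedom, R 4.3.3). P-values are two-sided and adjusted by Benjamini-Hochberg over all tested genes. The common biological coefficient of variation was 18.7%. Replicates differed beyond sampling noise, with chi-square per degree of freedom from 9.02 within the ATG groups. The fit was tested on simulated counts. Symbols were matched to RefSeq (GRCm38.p6), 14769 by symbol and 927 by synonym; 11573 tested genes had a promoter in its table.

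The samples, the 61 gene lists and the naming rule were chosen with earlier results of these data known. The rule took the 15 largest rises and 15 largest falls without overlap at 5 CPM or more. Predicted models, Xist, Tsix and Y-linked genes were left out of these. It also took up to 4 members per list by adjusted p, 15 fixed genes, the 5 smallest interaction p and exceptions within lists. Per motif it took the 2 called genes with the smallest adjusted p whose promoter holds the motif. Levels are CPM with TMM scaling. Alternatives were DESeq2 1.42.0, limma-voom (limma 3.58.1), RLE factors, no filter, a replicate block, the 6 ATG libraries alone, thinning to the smallest library, sex or cardiac markers as covariate, and leaving out the Nppa-rich libraries or each library.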

Additional observations from a re-analysis of the deposited data

How the results depend on the processing

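No named gene that passed changed its sign under any alternative, and 157 of the 190 kept their call in each alternative tried; Kdr and Sftpc, which did not pass, changed sign without some single libraries. The medians of 3 lists changed sign: p53 DNA repair (−0.0239, above 0 with cardiac markers in the fit, without both Nppa-rich libraries or when ATG hyperoxia 2 was left out), cholesterol and fatty acid synthesis (0.0377, down to −0.0019 without ATG room air 1, and below 0 without ATG hyperoxia 3) and cardiomyocyte markers (1.66, below 0 without ATG hyperoxia 2). The genes higher and lower in hyperoxia numbered 555 to 955 and 569 to 1090 when 1 ATG library was left out, with the fewest higher without ATG room air 1 and the fewest lower without ATG room air 3. They numbered 1137 and 1219 by DESeq2, 614 and 651 in the 6 ATG libraries alone, 678 and 767 with sex in the fit, 842 and 1021 with cardiac markers in the fit, 915 and 914 after thinning to the smallest library, and 710 and 737 without both Nppa-rich libraries. The genes called the same way after saline numbered 613 to 1106 when any 1 library was left out. With the replicate number as a block they were 808 higher and 955 lower. Deviations of same-numbered ATG libraries correlated at −0.0754, 0.0234 and 0.0991, so the libraries share only a number; number 3 alone correlated best with its own number.

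List medians (log2) that moved beyond the spread between replicates when 1 library was left out ran from 0.53 to 0.70 for p53 cell death, −0.165 to 0.0131 for p53 DNA repair, 0.0604 to 0.182 for thioredoxins, 0.45 to 0.71 for glutathione, 0.37 to 0.58 for quinone and drug metabolism, 0.18 to 0.51 for heme and iron, 0.34 to 0.72 for integrated stress response factors and 0.40 to 0.71 for amino acid supply. They ran from 0.10 to 0.18 for aminoacyl-tRNA synthetases, −0.31 to −0.21 for chaperones, 0.38 to 0.50 for lysosome, 0.39 to 0.57 for clock, 0.26 to 0.55 for transitional epithelium, 0.33 to 0.54 for matrix proteases, 0.23 to 0.42 for NF-kB and −0.41 to 2.14 for cardiomyocyte markers. Without both Nppa-rich libraries the medians were 0.16 for thioredoxins, 0.18 for heme and iron, 0.70 for stress response factors, 0.54 for matrix proteases, 0.42 for NF-kB and −0.41 for cardiomyocyte markers. With sex in the fit they were 0.032 for thioredoxins and 0.45 for amino acid supply, with cardiac markers in the fit 0.27 for heme and iron and −0.0264 for cardiomyocyte markers, and with the replicate block 0.34 for quinone and drug metabolism. Fewer libraries were fitted where 1 was left out; the cause of the other moves was not tested. With 3 libraries a group and 14589812 counts in the shallowest ATG library, the size of a fold change such as that of Ano3, with 0 to 6 counts in room air, rests on few counts. Floors and counts cover counting error only.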
